A study of Danio rerio with 2 samples.

Results

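Potassium channel genes were followed between 2 zebrafish heart libraries. The members are the genes whose name in the authors' comparison table starts with kcn, further letters and a digit, and which had at least 10 counts summed over both libraries. This left 119 of the 26126 genes counted. A further 8 potassium channel names fell below the minimum; KCNQ1, with 11 counts, lay just inside it and KCNJ12 (1 of 2), with 9, just outside. Names with "(1 of 2)" or the like are copies that the annotation named after a human gene, and 29 members carry one.

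One library came from hearts of kctd10 -/- homozygous mutant zebrafish (Danio rerio) and the other from wild-type hearts. Both were of the AB background at 48 hours post fertilization, when the embryonic heart already beats. The labels name no allele, no number of hearts pooled and no way of dissection. kctd10 encodes an adaptor of the Cullin 3 ubiquitin ligase, and the series asks which messenger RNAs differ in amount between hearts of both genotypes.

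Potassium channels let potassium leave the cell and so end each action potential and hold the resting voltage. Voltage-gated channels (Kv, KCNQ and the EAG, ELK and ERG group) open on depolarization. Inward rectifiers and tandem-pore channels act near rest, and calcium-activated channels couple voltage to intracellular calcium. Silent subunits form no channel alone but join Kv2 subunits, and auxiliary subunits tune gating or delivery to the membrane. In the heart these genes set the length of the heartbeat's electrical recovery, while most of them are better known from neurons.

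Total gene counts were 139099775 for the library labelled mutant and 150001992 for the library labelled wild type. With 1 library per genotype there is no replicate check and no test. Ratios compare these libraries, and each 95% interval covers counting error only, not variation between libraries of the same genotype. Amplified reads are not independent molecules, so the intervals may be too narrow even for counting error. Every ratio has the library labelled mutant on top and follows scaling by the trimmed mean of M-values (TMM). A gene is called higher when its whole interval lies above 1.5-fold and lower when it lies below the inverse of 1.5. Counts of different genes are not compared as levels, because transcript lengths were not used. The mutated gene itself, kctd10, had 19942 counts in the library labelled mutant and 8226 in the library labelled wild type, a ratio of 2.57 (2.5 to 2.63). The transcript of the mutated gene was therefore more abundant under the mutant label, and each library is called by its label throughout (the mutant label, the wild-type label). The counts do not verify the labels, and every direction would turn if the libraries were exchanged. The labelled tissue was represented: all 8 cardiomyocyte markers listed were measured, with summed levels of 11239 and 6846 CPM (counts scaled to a common library size) in the libraries labelled mutant and wild type.

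Most potassium channel genes had fewer counts, after scaling, in the library labelled mutant. Of the 119 members, 17 were lower and 4 higher, while 98 met neither rule. Of all 24009 genes with at least 10 counts, 6.66% were lower and 6.03% higher by the same rule, against 14.3% and 3.36% of the members. The log2 ratio lay below 0 for 90 members, or 75.6%, and for 49.9% of all genes. The median log2 ratio was −0.39 over the members (quartiles −0.72 and −0.03) and 0.00084 over all genes (quartiles −0.29 and 0.28). The whole interval lay below 1 for 57 members and above 1 for 15, while 34.1% of all genes lay on each side. Of the 22 members with 1000 or more counts 5 were lower and 3 higher, against 5.54% lower and 5.4% higher among all genes in that range. With 100 to under 1000 counts 9 of 63 members were lower and 1 was higher, against 9.96% and 8.21% of all genes there. With 10 to under 100 counts 3 of 34 were lower and 0 higher, against 6.18% and 5.25%. Only the 22 members with 1000 or more counts were thus called more often than all genes on both sides, at 22.7% lower and 13.6% higher. With 100 to under 1000 counts 14.3% of members were lower and 1.59% higher. With 10 to under 100 counts these shares were 8.82% and 0%. Below 1000 counts members were therefore called higher less often than all genes.

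**Figure D1:**
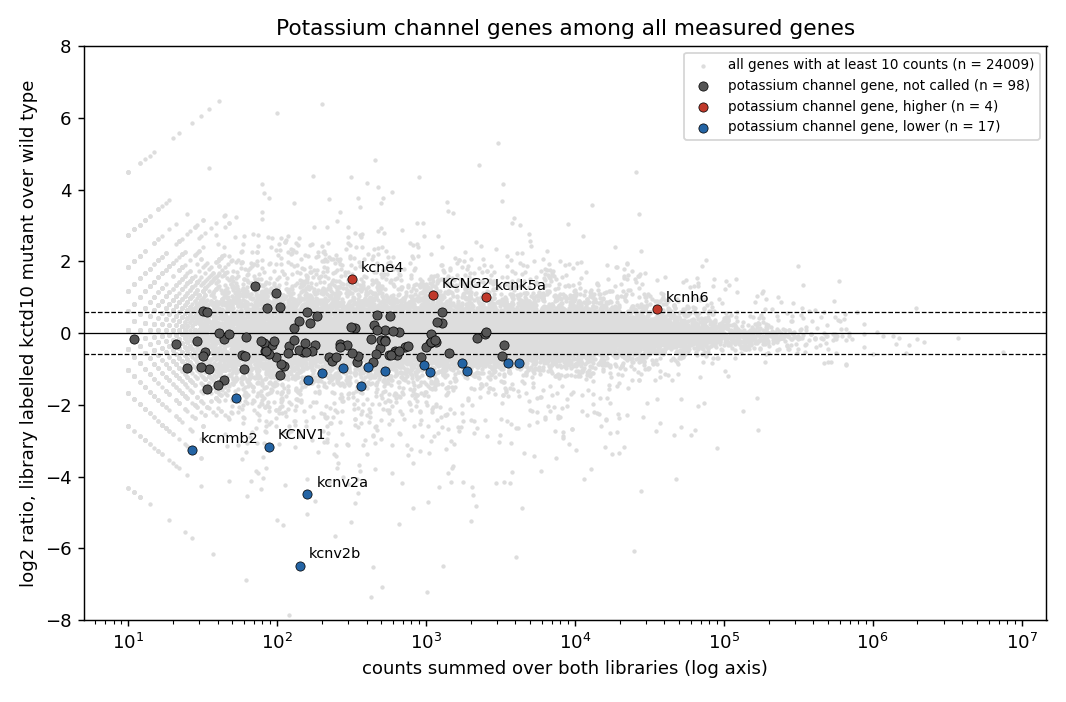
Each point is a gene, with its counts summed over both libraries (log axis) against its log2 ratio, library labelled kctd10 mutant over wild type. Grey points are all 24009 genes with at least 10 counts, and the dashed lines mark 1.5-fold. Of 119 potassium channel genes 4 (red) were higher and 17 (blue) lower, with kcnv2b and kcnv2a at the bottom and kcnh6 far to the right.

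Marker genes of other tissues were set beside the 6.03% higher and 6.66% lower of all genes. Of 23 neuronal markers 9 were lower (39.1%) and 0 higher, all 23 had log2 ratios below 0, and the median was −0.60. Their summed level was 1435 CPM in the library labelled mutant and 2197 CPM in the library labelled wild type. Of 24 skeletal muscle markers 21 were lower (87.5%), with summed levels of 943 CPM under the mutant label and 3510 CPM under the wild-type label. The glial, pigment cell, and ionocyte and kidney lists had at most 2 called genes per direction. Glial markers had 1 higher (11.1%) and 0 lower of 9, at 1622 CPM under the mutant label and 1848 CPM under the wild-type label. Pigment cell markers had 0 higher and 1 lower (8.33%) of 12, at 903 CPM under the mutant label and 1084 CPM under the wild-type label. Ionocyte and kidney markers had 1 higher (7.14%) and 2 lower (14.3%) of 14. They summed to 337 CPM under the mutant label and 399 CPM under the wild-type label. Of 10 mural and smooth muscle markers 3 were higher (30%) and 0 lower, at 777 CPM under the mutant label and 661 CPM under the wild-type label. This list was mixed. The higher genes were acta2, tagln and myh11a, while 4 of the 10 had log2 ratios below 0, among them pdgfrb and cspg4 at ratios of 0.676 and 0.663. Most of the sum came from notch3, with 68063 counts under the mutant label and 71393 under the wild-type label, a ratio of 1.01. No measured marker of these lists was at 0 in either library. In bulk samples fewer cells of a type and less RNA per cell cannot be told apart, and the part of these tissues in the potassium channel ratios was not tested.

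The ERG channel gene kcnh6 was higher in the library labelled mutant. It is called kcnh6a in the current name table (ENSDARG00000001803) and is known from zebrafish mutants with disturbed cardiac repolarization. kcnh6 had 21353 counts in the library labelled mutant and 14238 in the library labelled wild type, or 152 CPM under the mutant label and 95.8 CPM under the wild-type label, a ratio of 1.59 (1.56 to 1.62). Its lower bound stands close to the 1.5-fold limit. The gene held 42.8% of all member counts in the library labelled mutant (95% Clopper-Pearson interval 42.4 to 43.2) and 27.5% in the library labelled wild type (27.1 to 27.9), uncorrected for transcript length. Without it the members' summed level was 203 CPM in the library labelled mutant and 253 CPM in the library labelled wild type. With it the sums were 355 CPM under the mutant label and 349 CPM under the wild-type label. Cardiomyocyte markers stood higher in the same library, 5 of 8 by the rule (62.5%), against 6.03% of all genes. Ratios over the 8 markers ran from 1.3 for actn2, which encodes an actinin of the sarcomere, to 2.55 for the natriuretic peptide gene nppa. Called markers included tnnt2a, encoding cardiac troponin T, at 1.59, while the ventricular myosin gene vmhc, at 1.49, was not called. The part of cardiomyocyte share in the kcnh6 ratio was not tested. Ratios were also scaled so that the median of 28 cardiac sarcomere genes was 0, which lowers every log2 ratio by 0.39. These 28 genes were mixed, with 8 higher (28.6%) and 5 lower (17.9%) under TMM, against 6.03% and 6.66% of all genes. Their log2 ratios ran from −3.28 to 1.17. Under this sarcomere scaling the kcnh6 ratio was 1.21 and the gene was no longer called.

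A list of channels known for cardiac current in fish or mammals matched 22 members, of which kcnh6 was higher, kcnj5 and kcnn1a were lower and 19 met neither rule. That is 86.4% meeting neither rule, near the 87.3% of all genes. The list was matched in any letter case to the name, the name without its copy number in parentheses, or the current symbol. It gave some genes only as a and b copies. The members kcnj2, KCNJ3 (1 of 2), KCNJ3 (2 of 2), kcnk3, KCNK3 (1 of 2) and KCNK2 (1 of 2) were therefore not among the 22. All of these had ratios below 1 and met neither rule. The log2 ratios of the 22 matched members had a median of −0.21, and 19 of the 22 lay below 0. kcnq1, the slow delayed rectifier channel of mammalian heart, had 687 counts in the library labelled mutant and 596 in the library labelled wild type, a ratio of 1.22 (1.09 to 1.36). kcnd3, a transient outward channel, had 1026 counts under the mutant label and 1194 under the wild-type label, a ratio of 0.91 (0.837 to 0.99). A second Kv4 gene, kcnd2, had a ratio of 0.869 and the Kv1.4 gene KCNA4 of 0.814. kcnh2 and KCNH2 (1 of 2), further ERG genes, had 197 and 68 counts in the library labelled mutant and 234 and 87 in the library labelled wild type, and both intervals included 1. The KCNQ1 copy at the count minimum, KCNJ12 (2 of 2), KCNIP2 (2 of 2), kcnk1b and kcnk2b also met neither rule, with ratios of 0.883, 0.975, 0.689, 0.634 and 0.77.

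The silent subunits kcnv2b and kcnv2a had the lowest ratios of all members, and KCNG2 of the same family was higher. kcnv2a and kcnv2b are copies of the Kv8.2 gene, whose human form is a subunit of photoreceptor channels and is mutated in a cone dystrophy. kcnv2b (ENSDARG00000062906) had 1 count in the library labelled mutant and 141 in the library labelled wild type, a ratio of 0.00751 (0.000189 to 0.0425). kcnv2a (ENSDARG00000076644), at 6 counts under the mutant label and 154 under the wild-type label, had a ratio of 0.0413 (0.0149 to 0.0919), which is 24.2-fold lower. KCNV1, the Kv8.1 gene known from brain, stood at 8 counts under the mutant label and 80 under the wild-type label, 9.44-fold lower (4.57 to 22.6). All 3 KCNV members were thus called lower, with 15 counts in sum in the library labelled mutant against 375 in the library labelled wild type. Of 20 photoreceptor markers 9 were lower by the rule (45%) and 0 higher, against 6.66% and 6.03% of all genes. Their summed level was 42.7 CPM in the library labelled mutant and 244 CPM in the library labelled wild type. Among the 20 markers, the rod opsin gene rho had 15 counts under the mutant label and 650 under the wild-type label. Regulator genes carried most of that sum. The photoreceptor regulator crx had 1479 counts under the mutant label and 16170 under the wild-type label, while the opsin gene opn1lw1 had 29 under the mutant label and 14 under the wild-type label. Without the regulators crx, nr2e3 and otx5, a choice made after their values were seen, the other 17 markers summed to 18.9 CPM under the mutant label and 30.1 CPM under the wild-type label, 1.60-fold lower. Of these 17 markers 6 were lower by the rule and 0 higher. The lower ones were rho, rom1b, opn1sw1, opn1mw1, rcvrna and sagb, at ratios of 0.0244, 0.0785, 0.0963, 0.151, 0.209 and 0.405. Of these, rom1b, opn1sw1 and opn1mw1 had few counts, with 4, 2 and 4 under the mutant label and 54, 22 and 28 under the wild-type label. Among those not called, the cone transducin gene gnat2 and the cone phosphodiesterase gene pde6c had ratios of 1.34 and 1.05. The uncalled gnb3b, saga and arr3a had ratios of 1.1, 0.925 and 0.829. Also uncalled, opn1sw2, prph2a, gnat1, pde6h and prph2b had ratios of 0.462, 0.504, 0.705, 0.818 and 0.883. Among the uncalled markers, the intervals of opn1sw2, prph2a, gnat1, pde6h and arr3a lay wholly below 1. Those of gnat2 and opn1lw1 lay wholly above 1. The part of photoreceptor cells in the kcnv2 ratios was not tested.

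Among the remaining silent subunits, KCNG2, which encodes a partner of Kv2 channels, had 741 counts in the library labelled mutant and 375 in the library labelled wild type. Its ratio was 2.09 (1.85 to 2.38), or 1.60 and not called under the sarcomere scaling. KCNS3 (1 of 2), a Kv9.3 gene, stood at 44 counts under the mutant label and 117 under the wild-type label, 2.51-fold lower (1.76 to 3.64). The other KCNG members lay on either side of 1, with ratios of 1.11 for kcng1, 1.06 for kcng4, 1.21 for KCNG4 (1 of 2) and 0.585 for kcng3. KCNS1, kcnf1a and kcnf1b met neither rule. The family of 12 therefore had 4 lower (33.3%) and 1 higher member (8.33%), against 6.66% and 6.03% of all genes. Its median log2 ratio was −0.24.

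**Figure D2:**
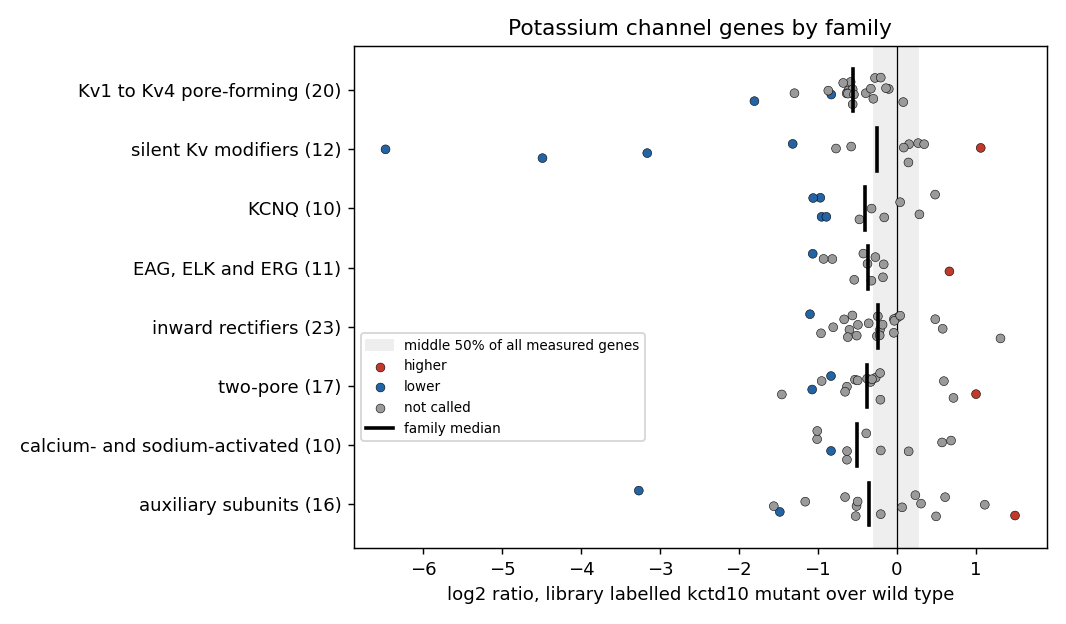
Log2 ratio of each of 119 potassium channel genes, library labelled kctd10 mutant over wild type, by family, with the number of genes in parentheses. Black bars are family medians and the grey band is the middle 50% of all measured genes; all 8 medians lie below 0, and the silent Kv modifiers reach down to −6.48.

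The pore-forming Kv1 to Kv4 genes leaned lower as a family. Of 20 genes 19 had log2 ratios below 0, with a median of −0.56, yet 2 (10%) were called lower, against 6.66% of all genes. One of them, KCNA1 (2 of 2), a Kv1.1 gene of axons, stood at 11 counts under the mutant label and 42 under the wild-type label, 3.60-fold lower (1.82 to 7.76). All 9 Kv1 genes, including kcna1 and the copies of KCNA2, KCNA3 and KCNA10, lay below 0, between −1.80 and −0.10. kcnb2, a Kv2 gene and thus a partner of the silent subunits, had a ratio of 0.651 (0.547 to 0.773). kcnc4 was the member above 0, with 266 counts in each library.

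Of the 10 KCNQ genes 4 were lower (40%) and 0 higher, against 6.66% and 6.03% of all genes. The lower ones included kcnq3 and kcnq5b. KCNQ3 and KCNQ5 channels take part in the M-current, a brake on neuronal firing. kcnq3 had 167 counts in the library labelled mutant and 369 in the library labelled wild type, a ratio of 0.479 (0.397 to 0.577). kcnq5b had 327 counts under the mutant label and 643 under the wild-type label, a ratio of 0.539 (0.47 to 0.616). The copies of KCNQ5 thus differed, since kcnq5a had 325 counts under the mutant label and 334 under the wild-type label and met neither rule. KCNQ3 (2 of 2) met neither rule, with a ratio of 0.719 (0.504 to 1.02).

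In the EAG, ELK and ERG group 10 of 11 members had log2 ratios below 0, the exception being kcnh6. KCNH7 (2 of 2), an ERG3 gene known from the nervous system of mammals, had 585 counts in the library labelled mutant and 1296 in the library labelled wild type, and was 2.09-fold lower (1.9 to 2.31). It was the one lower member, or 9.09% of the 11, against 6.66% of all genes. The EAG genes kcnh5a and kcnh5b had ratios of 0.523 (0.343 to 0.785) and 0.8 (0.587 to 1.09), and the ELK genes kcnh3, kcnh4 and kcnh8 of 0.746, 0.567 and 0.687. kcnh1a had a ratio of 0.772. KCNH6 (2 of 2), called kcnh6b in the current name table, is by name the other copy of kcnh6 (kcnh6a). It had 20 counts under the mutant label and 24 under the wild-type label, a ratio of 0.883 (0.463 to 1.67). These copies were not among the 22 pairs compared below, because the older names do not pair. The direction within the ERG genes thus differed between kcnh6 and KCNH7 (2 of 2).

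Inward rectifiers were the largest family, with 1 lower (4.35%) and 0 higher of 23, against 6.66% and 6.03% of all genes. kcnj5 encodes GIRK4, which with GIRK1 from the KCNJ3 gene forms the atrial channel opened by acetylcholine. It had 61 counts in the library labelled mutant and 139 in the library labelled wild type, a ratio of 0.465 (0.338 to 0.633). KCNJ3 (1 of 2) and KCNJ3 (2 of 2) had 524 and 246 counts in the library labelled mutant and 655 and 395 in the library labelled wild type, with ratios of 0.847 (0.754 to 0.952) and 0.66 (0.56 to 0.776). The neuronal GIRK genes KCNJ6 and KCNJ9 had ratios of 0.572 and 0.65, both intervals below 1 and neither called.

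Measured pore genes of the ATP-sensitive and classical inward rectifier channels met neither rule, and the kcnj11 copies stood near no change. kcnj11 had 520 counts in the library labelled mutant and 562 in the library labelled wild type, a ratio of 0.98 (0.868 to 1.11), and kcnj11l 1189 under the mutant label and 1292 under the wild-type label, a ratio of 0.975 (0.9 to 1.06). kcnj8 had 43 counts under the mutant label and 53 under the wild-type label, a ratio of 0.859 (0.561 to 1.31). kcnj2, the gene of the resting current in mammalian ventricle, had 522 counts under the mutant label and 626 under the wild-type label, a ratio of 0.883 (0.785 to 0.994). kcnj14, a further classical gene, had 8 counts under the mutant label and 17 under the wild-type label, a ratio of 0.499 (0.186 to 1.22). kcnj13, known for stripe patterning in zebrafish skin, was the most counted inward rectifier with 1242 counts under the mutant label and 1276 under the wild-type label, a ratio of 1.03 (0.953 to 1.12). KCNJ16 had the highest ratio of the family at 2.52 (1.49 to 4.42), on 50 counts under the mutant label and 21 under the wild-type label, just short of the rule.

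The copies kcnj1a.1 to kcnj1a.6 are named after ROMK, a potassium secretion channel of kidney, and also of ionocytes in fish. In the RefSeq table of assembly GRCz12tu they follow each other without a protein-coding gene between them, and kcnj5 is the next such gene beside kcnj1a.1. All 6 had fewer scaled counts in the library labelled mutant, with ratios from 0.63 (0.55 to 0.721) for kcnj1a.6 to 0.863 (0.725 to 1.03) for kcnj1a.2, and none met the rule. Their counts summed to 1715 in the library labelled mutant and 2410 in the library labelled wild type. kcnj1b, a related gene, went the other way with 326 counts under the mutant label and 246 under the wild-type label, a ratio of 1.4 (1.19 to 1.66). Near-identical copies may share reads, so single values of the tandem copies are uncertain.

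Tandem-pore channels, which pass background potassium current, held 1 higher (5.88%) and 2 lower genes (11.8%) of 17. Of all genes 6.03% were higher and 6.66% lower. kcnk5a and kcnk5b are copies of the TASK-2 gene, an alkaline-sensitive channel; kcnk5b is known in zebrafish from mutants with overgrown fins. kcnk5a had 1664 counts in the library labelled mutant and 878 in the library labelled wild type, a ratio of 2.01 (1.85 to 2.18). kcnk5b had 609 counts under the mutant label and 1149 under the wild-type label, a ratio of 0.561 (0.508 to 0.62), so the copies stood on opposite sides. Under the sarcomere scaling kcnk5a had a ratio of 1.53 and was not called.

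kcnk10b, a gene of the stretch-sensitive TREK channels, had 330 counts in the library labelled mutant and 735 in the library labelled wild type, and was 2.10-fold lower (1.84 to 2.4). The most counted member of the family, kcnk1a (TWIK-1), had 1426 counts under the mutant label and 1900 under the wild-type label, a ratio of 0.795 (0.742 to 0.852). kcnk6 lay above 1 at 1.51 (1.35 to 1.7) with 756 counts under the mutant label and 529 under the wild-type label and was not called. The TASK genes kcnk3, KCNK3 (1 of 2), kcnk9 and kcnk15 and the TREK genes kcnk2b and KCNK2 (1 of 2) had between 9 and 112 counts in the library labelled mutant, and ratios from 0.636 to 0.862.

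Calcium- and sodium-activated channels had 1 lower gene of 10 (10%), against 6.66% of all genes. kcnn1a, a small-conductance channel gene, had 1231 counts in the library labelled mutant and 2322 in the library labelled wild type, and was 1.78-fold lower (1.66 to 1.91). Its copy kcnn1b had 238 counts under the mutant label and 290 under the wild-type label, while KCNN2 had a ratio of 1.11 and kcnn3 of 0.765. The large-conductance channel gene kcnma1a had 1237 counts under the mutant label and 2029 under the wild-type label, a ratio of 0.646 (0.601 to 0.694), whose upper bound stood just above the limit. The sodium-activated channel gene kcnt1 had a ratio of 1.49 (1.08 to 2.08), also not called.

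Of 16 auxiliary subunit genes 1 was higher (6.25%) and 2 were lower (12.5%), against 6.03% and 6.66% of all genes. kcne4, a single-pass subunit that inhibits several Kv channels in mammals, had 233 counts in the library labelled mutant and 87 in the library labelled wild type. With a ratio of 2.84 (2.21 to 3.67) it was the highest of the 119 members by ratio. KCNAB2 (1 of 2), a cytoplasmic beta subunit gene of Kv1 channels, stood at 93 counts under the mutant label and 276 under the wild-type label, 2.80-fold lower (2.21 to 3.58). kcnmb2, a beta subunit gene of the large-conductance channel, had 2 counts under the mutant label and 25 under the wild-type label, a ratio of 0.0847 (0.00973 to 0.34). KCNMB3, another beta subunit gene, had 66 counts under the mutant label and 32 under the wild-type label and a ratio of 2.18 (1.41 to 3.44), not called. The Kv4-binding calcium sensors of the kcnip group had 0 called of 7, from kcnip1b at 1.24 (1.1 to 1.39) to kcnip2 at 0.326 (0.128 to 0.741) on 8 counts under the mutant label and 26 under the wild-type label.

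**Figure D3:**
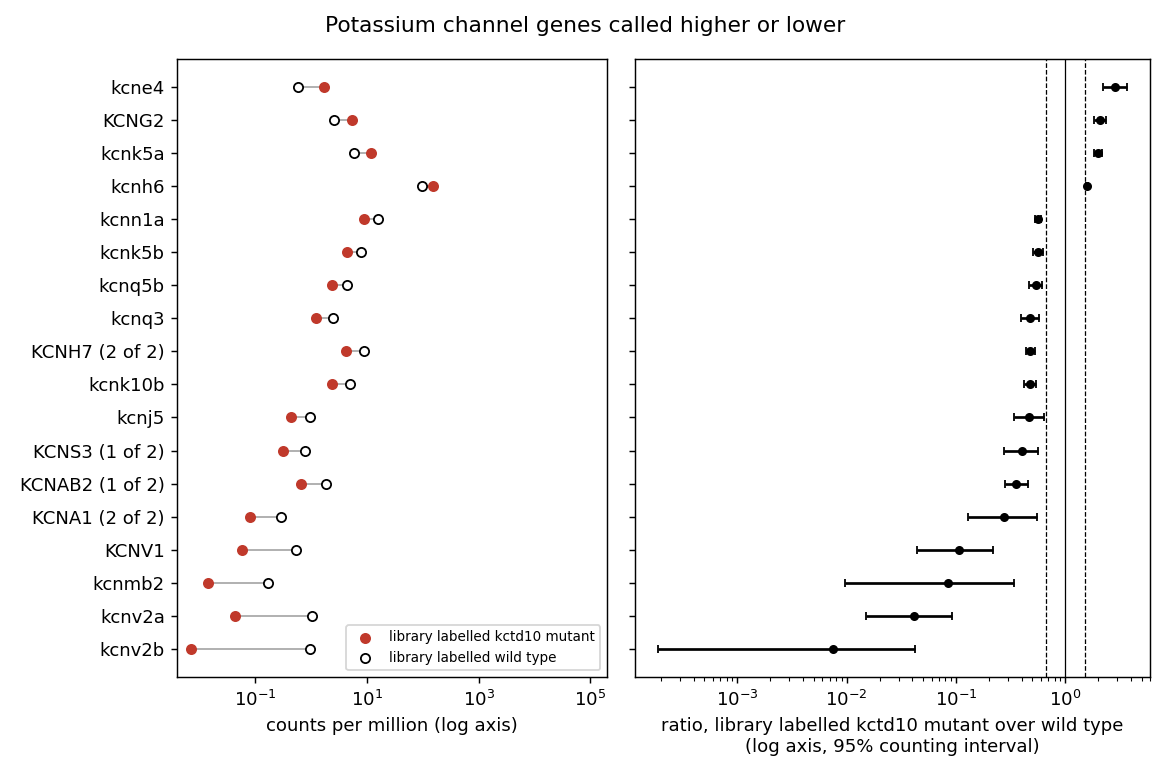
The 18 called potassium channel genes reported here, with CPM in the library labelled kctd10 mutant (filled) and the library labelled wild type (open) at left, and the ratio with its 95% counting interval at right, both on log axes. Dashed lines mark 1.5-fold and its inverse; intervals are wide for kcnv2b and kcnmb2, which had 1 and 2 counts in the library labelled mutant.

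Copies of the same gene could be set against each other without any scaling between libraries. For 22 pairs named a and b, or 1 of 2 and 2 of 2, the ratio of both ratios was computed with an exact conditional 95% interval, which was not adjusted for 22 pairs. The interval left out 1 for 9 pairs. Both copies lay below 1 in 14 pairs, both above in 2 and on opposite sides in 6. Of all members 75.6% had log2 ratios below 0. Pairs of unrelated genes were not computed, so these pair counts are not read as a trait of copies. kcnk5a over kcnk5b gave the highest ratio of ratios among these 9 pairs, 3.58 (3.14 to 4.07). KCNAB2 (1 of 2) over KCNAB2 (2 of 2) gave 0.303 (0.222 to 0.413), where the second copy had 237 counts in the library labelled mutant and 213 in the library labelled wild type. kcnq5a over kcnq5b gave 1.91 (1.55 to 2.36), and kcnn1a over kcnn1b 0.646 (0.535 to 0.781). The copies KCNN4 (1 of 2) and KCNN4 (2 of 2), at 3.34 (1.35 to 8.51), and kcnk13a and kcnk13b, at 3.28 (1.31 to 8.57), also parted, on at most 64 counts a library. The pairs of kcnc1, kcnip1 and KCNA3 had intervals that included 1.

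**Figure D4:**
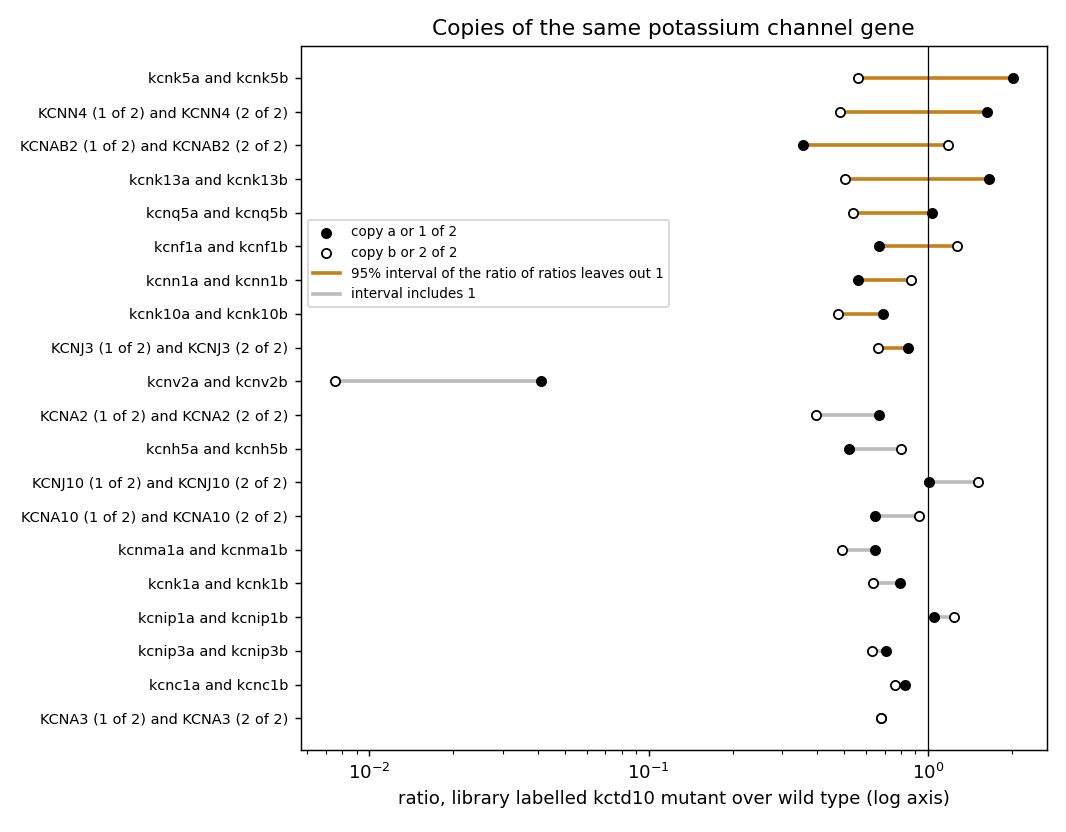
Ratio of each copy in the 20 pairs of potassium channel genes reported here, library labelled kctd10 mutant over wild type (log axis), filled for copy a or 1 of 2 and open for copy b or 2 of 2. Orange lines join the 9 pairs whose ratio of ratios has a 95% interval that leaves out 1; in kcnk5 the copies lie at 2.01 and 0.561.

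Of 14 measured partner and pacemaker channel genes that work beside the potassium channels, 1 was higher (7.14%) and 2 were lower (14.3%), against 6.03% and 6.66% of all genes. The pacemaker channel gene hcn2 had 7246 counts in the library labelled mutant and 4743 in the library labelled wild type, a ratio of 1.62 (1.56 to 1.68). This ratio follows TMM, and the sarcomere scaling lowers the hcn2 log2 ratio of 0.69 by 0.39. abcc8, the regulatory subunit gene of the ATP-sensitive channel, had 604 counts under the mutant label and 1077 under the wild-type label, a ratio of 0.594 (0.537 to 0.657), while its cardiac relative abcc9 had a ratio of 0.869. The lower gene si:rp71-68n21.12, called hcn5 in the current name table, had 33 counts under the mutant label and 80 under the wild-type label.

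Of 16 sodium-potassium pump genes 3 were lower (18.8%) and 0 higher, against 6.66% and 6.03% of all genes. atp1b2b, a pump beta subunit gene, had 260 counts in the library labelled mutant and 1505 in the library labelled wild type, and was 5.46-fold lower (4.79 to 6.26). The neuronal alpha subunit gene atp1a3a was 2.02-fold lower (1.96 to 2.07). atp1a1a.1, the most counted pump gene and known from zebrafish heart mutants, had 128632 counts under the mutant label and 98721 under the wild-type label, a ratio of 1.38 (1.37 to 1.39). Of 28 sodium and calcium channel genes 2 were higher (7.14%) and 6 lower (21.4%), against 6.03% and 6.66% of all genes. The higher share was thus near that of all genes. The auxiliary gene cacna2d4b was 2.19-fold higher (1.69 to 2.87) and the T-type channel gene CACNA1H (2 of 2) 1.76-fold (1.59 to 1.95). Both calls follow TMM and are not given under the sarcomere scaling, which lowers every log2 ratio by 0.39. cacnb3b was 3.74-fold lower (2.77 to 5.13) and the neuronal sodium channel gene scn8aa 2.02-fold (1.91 to 2.13). The most counted gene of this list, cacna1g, had a ratio of 1.25. The list medians were −0.28, −0.12 and −0.32 for partners, pumps and sodium and calcium channels, beside 0.00084 for all genes.

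The same 21 members were called under DESeq2 and upper-quartile scaling, while scaling to the 28 cardiac sarcomere genes shifted every gene alike. Then 1 member, kcne4, was higher and 43 were lower, and 2.27% of the called members were higher, against 19.0% under TMM. Under that scaling 2.83% of all genes were higher and 18.7% lower.

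The authors' deposited tables gave the same libraries' values by other routes. In the authors' deposited table of Ensembl genes, compared without replicates, kcnv2b and kcnv2a had adjusted p-values of 0.000881 and 0.00942 from DESeq. These were the 2 of 119 members with an adjusted p below 0.1, and 108 members had an adjusted p of 1. That limit of 0.1 was met by 2.24% of the 24009 genes with at least 10 counts. The authors' deposited table of UniGene clusters names its fold column OE over CON. It is read here as mutant over wild type, from the name of its sheet. There kcnk5a and kcnk5b, matched through older symbols, had folds of 2.01 and 0.6. In the authors' deposited UniGene table kcnk10b had 0.47 and KCNH7 (2 of 2) 0.49. The clusters erg and kcnh2 of the authors' deposited UniGene table had folds of 1.43 and 1.59. Both names stand among the older symbols of kcnh6a in the RefSeq table. The match rests on the name alone, so either cluster, erg above all, may belong to another gene. They are not read as further values of kcnh6. The Ensembl gene called kcnh2 is another member, with a fold of 0.889 in the authors' deposited table.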

How the data were processed

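RNA of hearts at 48 hours post fertilization was sequenced from TruSeq libraries, 1 per genotype, per the labels' protocols. TopHat and DESeq stand in the submitters' processing notes, beside the build Zv9. No source used here gives the counting tool, the annotation release or the use of strand, which leaves overlapping genes and near-identical copies uncertain. Each Ensembl gene has an unnormalized read count in the table the authors deposited. The line naming no gene, 9.17% and 9.21% of counts in the libraries labelled mutant and wild type, was left out of all totals. For Ensembl genes the authors' deposited comparison holds a fold ratio, its log2 value and p-values, per the file headers. A deposited UniGene comparison holds a fold ratio and its log2 value. A further 7 columns of means and counts in these comparison tables were not used.

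Count columns were assigned by the genotype abbreviations in their names. TMM factors from edgeR 4.0.16 (R 4.3.3), over genes with at least 10 counts, gave effective sizes of 140343348 and 148672835 counts in the libraries labelled mutant and wild type. Ratios carry exact 95% Clopper-Pearson intervals (scipy 1.17.1). Log2 ratios used 0.5 added to each count, and CPM used the effective sizes. Intervals were tried on counts simulated with counting error alone. That simulation cannot show how they hold for amplified reads or between libraries of the same genotype. The members and lists were chosen with earlier results of these data known. Some members counted in the totals are not reported here by name or in figures that name genes. Otherwise named were every called member, with counts, ratio and interval for the 12 per direction with at least 50 counts farthest from no change, the most counted member of each family, the cardiac current list, and up to 2 higher and 2 lower genes and the most counted one of the other lists. Of the other list and marker genes, and of the further members named, the choice was made after values were seen. Marker lists were matched by symbol. Of the members 76 matched the RefSeq table of GRCz12tu by symbol, used for names and neighbours; no coordinates are given, since the build differs. Other settings tried were library totals, upper-quartile factors, size factors of DESeq2 1.42.0, scaling to the sarcomere list, other fold, count and interval limits, 2 added to each count, the mean, leaving out names with "n of m", and the authors' folds.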

Additional observations from a re-analysis of the deposited data

How the results depend on the processing

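The same 21 members were called under DESeq2 size factors and upper-quartile factors. Library totals gave 5 higher and 16 lower members, with KCNJ16 gained. Scaled to the sarcomere list, 1 member was higher and 43 were lower, with a median log2 ratio of −0.77 beside −0.39 for all genes, and KCNG2, kcnh6 and kcnk5a were no longer called. A 2-fold limit left 1 higher and 5 lower members, kcne4 and the kcnv2a, kcnv2b, KCNV1, kcnmb2 and KCNAB2 (1 of 2) genes, against 2.64% and 2.82% of all genes, while a limit of 1 gave 15 and 57. Leaving out names with "n of m" removed 6 lower genes, leaving 11. The authors' folds, which carry no interval, put 11 members above 1.5-fold and 44 below its inverse, against 12.3% and 13.6% of all genes. A minimum of 50 counts left out kcnmb2, and a 99% interval left 14 lower members, without kcnj5. No paired analysis was possible because each genotype has 1 library, and for the same reason no library could be left out. On the log scale the widest interval was that of kcnv2b, with 1 count in the library labelled mutant and 141 in the library labelled wild type. Intervals were also wide among the 34 members with under 100 counts.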
